A study of Mus musculus with 3 samples.

Results

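ChIRP-seq regions were examined at 9 genes that make polyubiquitin or protein-folding chaperones, namely Ubb, Hspa8, Hsp90ab1, Hsp90aa1, Hspa5, Hsp90b1, Calr, Pdia3 and Serpinh1. The 9 genes were chosen by name among the 22367 protein-coding genes of the GENCODE M1 annotation of mm9, and every region that overlapped the span of one of them by at least 1 bp was taken. The odd pool had 14 such regions among its 2112, and the even pool had 7 among its 345. Beyond that overlap, the rule used no score of a region and no place within the gene, and members without a region are given as such. The genes themselves were chosen with earlier results of these data known.

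The study asked which places in the genome are bound by PAM, a nuclear enhancer RNA of mouse muscle stem cells. Satellite cells were sorted from the hindlimb muscles of Tg:Pax7-nGFP mice, which mark Pax7-expressing cells with a nuclear fluorescent protein, and were cultured, which makes them activated satellite cells (ASCs). Untreated ASCs were crosslinked with glutaraldehyde, lysed and sonicated, and the lysate was divided into aliquots. Biotinylated probes against PAM were added to it separately as an odd and an even pool, with 1 library per pool. The input library was not analysed here. Neither pool was paired with a knockdown or an unrelated probe set in the lists used, the labels do not tell how many mice were pooled, and the lists hold no expression values with which the cell type could be checked. The authors mapped unique reads to mm9, and each deposited list gives regions of a fixed width, 254 bp for odd and 248 bp for even probes, with a score. The paper reports fewer PAM-bound regions than either list holds, so a region given here need not be among them. What the score measures is not stated, and the number of reads is unknown, so scores were ranked within a list only, and none of the differences below has a replicate error or a test.

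Ubiquitin is a small protein that is attached to other proteins, often to mark them for the proteasome, and Ubb is one of the genes that encode it as head-to-tail repeats in a single coding sequence. Chaperones of the HSP70 and HSP90 families bind unfolded or partly folded proteins and let them go in cycles driven by ATP, and each family has members in the cytosol and in the endoplasmic reticulum (ER). Secreted and membrane proteins fold in the ER, where lectin chaperones, disulfide isomerases and a chaperone particular to collagen also act. Several of these genes are expressed in nearly every cell and have left processed copies, which are reverse-transcribed, intronless sequences, elsewhere in the genome.

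In the odd pool, 7 of the 9 genes held at least 1 region, where 6.46% of all protein-coding genes did. In the even pool, 4 of the 9 genes held a region, against 0.997% of all protein-coding genes. These shares are a description, since the 9 genes were picked with the lists known. Ubb, Hsp90ab1, Hsp90b1 and Serpinh1 held regions of both pools, and at each of them regions of both pools overlapped. Hspa5, Calr and Pdia3 held odd regions only. Hspa8 and Hsp90aa1, the cytosolic HSC70 and the inducible cytosolic HSP90, held none in either list. There were 6 overlaps between the pools, here called shared loci, in 4 of the 9 genes, whereas 0.469% of all protein-coding genes held one and the whole lists had 147.

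**Figure D1:**
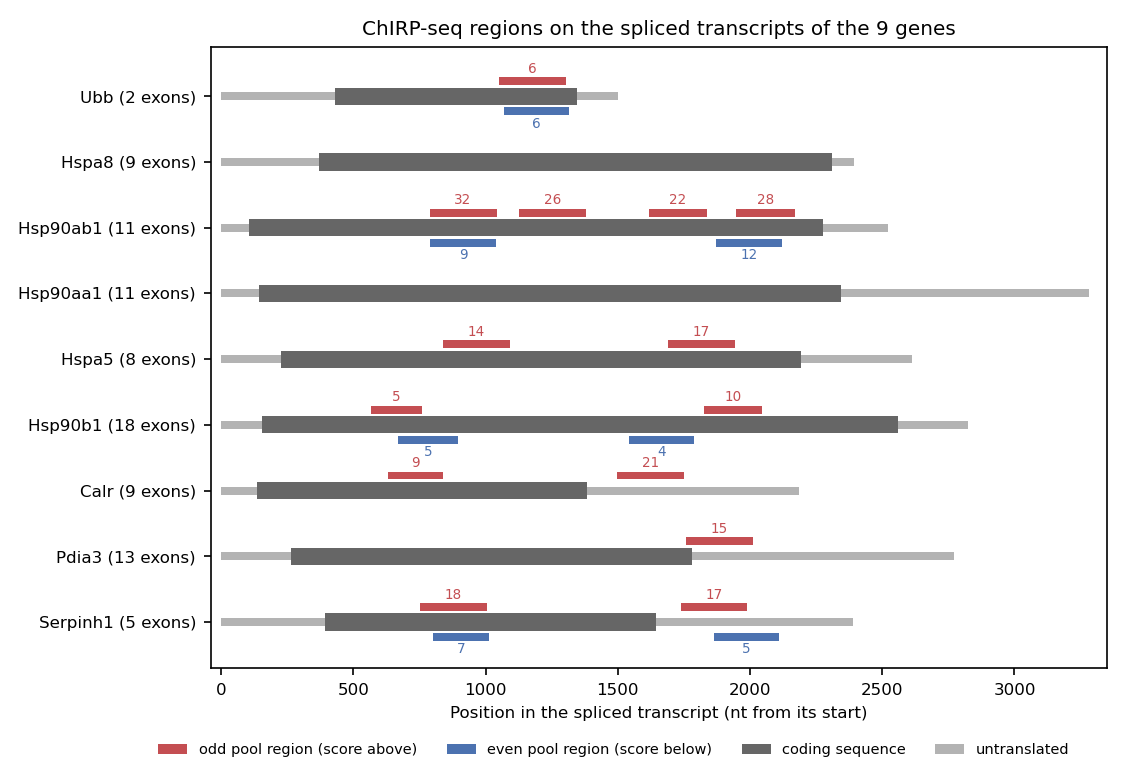
Regions of the odd pool (red, above) and of the even pool (blue, below) on the spliced transcript of each of the 9 genes, with the position in nucleotides from the transcript start on the x axis; intronic bases of a region are not drawn, and the numbers are the deposited scores. The 4 odd regions of Hsp90ab1 have scores from 22 to 32, Hspa8 and Hsp90aa1 are empty, and no region lies on a first exon.

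Ubb lies on the plus strand at chr11:62364673-62366715 of mm9. It has 2 exons, and the whole coding sequence of 915 nt is in the second. Its odd region was chr11:62366266-62366519 with a score of 6, which 51.4% of the odd regions reached or passed. Its even region was chr11:62366284-62366531, also with a score of 6, which 35.1% of the even regions reached or passed. The midpoints were 15 bp apart and 236 bp were covered by both pools, so both pools marked the same stretch of coding sequence, at a score near the middle of each list.

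The coding sequence of Ubb is made of 4 ubiquitin units of 228 nt (76 codons) each, followed by 3 nt. They are printed here on the plus strand of mm9 to show how alike they are, at chr11:62365648-62365875, chr11:62365876-62366103, chr11:62366104-62366331 and chr11:62366332-62366559. Capitals mark bases that differ from the most common base of the 4 units at that place, and where bases were equally common the one met first from unit 1 on was taken.
Ubb unit 1: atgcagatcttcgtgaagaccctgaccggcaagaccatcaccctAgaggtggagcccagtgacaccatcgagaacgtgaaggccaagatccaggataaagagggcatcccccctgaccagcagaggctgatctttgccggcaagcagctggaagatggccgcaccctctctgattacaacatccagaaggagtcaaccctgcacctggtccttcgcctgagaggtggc
Ubb unit 2: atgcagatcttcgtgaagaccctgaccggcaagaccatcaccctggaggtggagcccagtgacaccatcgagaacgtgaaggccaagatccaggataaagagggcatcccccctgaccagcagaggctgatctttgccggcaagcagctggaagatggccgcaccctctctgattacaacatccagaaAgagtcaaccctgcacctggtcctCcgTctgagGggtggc
Ubb unit 3: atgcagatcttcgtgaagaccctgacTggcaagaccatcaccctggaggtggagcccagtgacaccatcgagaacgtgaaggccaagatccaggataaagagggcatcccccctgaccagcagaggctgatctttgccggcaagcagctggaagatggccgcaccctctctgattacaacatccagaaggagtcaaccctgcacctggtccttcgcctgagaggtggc
Ubb unit 4: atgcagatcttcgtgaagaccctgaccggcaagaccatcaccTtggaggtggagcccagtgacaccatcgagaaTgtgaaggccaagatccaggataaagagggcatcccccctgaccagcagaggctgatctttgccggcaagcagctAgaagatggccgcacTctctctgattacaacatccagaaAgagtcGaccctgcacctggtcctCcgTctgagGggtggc

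The units were 95.6% to 99.1% identical to each other. Unit 4 had 9 marked bases, against 1, 4 and 1 in units 1 to 3. The 4 of unit 2 are marked in unit 4 too, at places where the units were evenly split, so these counts depend on the rule for equally common bases. The regions of both pools lay mostly in unit 4, with 188 bp of the odd region and 200 bp of the even region. The other 66 and 48 bp were in unit 3, and none was in units 1 and 2. Stretches of 31 bases (31-mers) were counted in mm9 to tell where a read can be placed uniquely. No 31-mer that lay wholly within units 1, 2 or 3 occurred 1 time only, and in unit 4 25.3% did. The 31-mers of the odd region had a median of 2 copies and 22.3% were unique, and those of the even region had a median of 2 copies and 22.9% were unique. The place of the regions thus went with the unit that has unique sequence, and the part of unique mapping in that was not tested.

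Hsp90ab1, the constitutive cytosolic HSP90, lies on the minus strand at chr17:45704724-45710220 and has 11 exons. It held 4 odd regions, and 25 of all protein-coding genes, or 0.112%, held at least as many. At least 2 odd regions were held by 5 of the 9 genes, against 1.27% of all protein-coding genes. The region in exon 6, chr17:45707228-45707481, had a score of 32, which 1.66% of the odd regions reached. The region in exon 10, chr17:45705148-45705401, had a score of 28, and 2.18% reached it. The region in exon 7, chr17:45706459-45706712, had a score of 26, and 2.70% reached it. The region in exon 9, chr17:45705774-45706027, had a score of 22, and 3.84% reached it. These were the 4 highest odd scores among the 9 genes. All 4 lay in the coding sequence, with 30 bp and 33 bp of intron in the regions of exons 10 and 9, and together with the even regions they covered 40.8% of the spliced transcript.

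The even pool marked Hsp90ab1 at exons 10 and 6. The region in exon 10, chr17:45705228-45705475, had a score of 12, which 10.4% of the even regions reached, and overlapped the odd region by 174 bp with its midpoint 77 bp away. The region in exon 6, chr17:45707231-45707478, had a score of 9, which 16.8% reached, and lay wholly inside the odd region with a midpoint at a distance of 0 bp. In the odd pool exon 6 scored above exon 10, and in the even pool the order was the reverse. Exons 7 and 9 held no even region.

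The odd region of exon 6, with the highest score among the 9 genes, covers nucleotides 683 to 936 of the coding sequence, and 73.2% of its bases were purines (A or G) on the gene strand. Of the 1671 odd regions that overlap a single protein-coding gene, 1.44% had as many purines, and their median was 49.2%. The coding sequence of Hsp90ab1 as a whole had 56.4% purines. The even region at the same place, which covers nearly the same bases, had 73.4%. No other of the 231 even regions in a single gene had as many (0.433%, the region itself). The other odd regions of Hsp90ab1 had 63.0% in exon 9, 53.5% in exon 7 and 49.6% in exon 10, so a high purine content was not shared by all 4. Purine content was chosen as a measure after the sequences had been seen.

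Hsp90aa1, the cytosolic HSP90 that stress induces, lies on the minus strand at chr12:111928815-111940938, also with 11 exons. It held no region. The nearest odd region was 65.725 kb away in Dync1h1, with a score of 4, the lowest in the list, and the nearest even region was 10483.9 kb away. The coding sequences of Hsp90ab1 and Hsp90aa1 were 76.6% identical, with a longest identical run of 33 nt. Over the 6 regions of Hsp90ab1 the identity to Hsp90aa1 ranged from 74.0% to 77.8%, and the longest identical run was 12 to 15 nt. The shared locus of Hsp90ab1 in exon 10, chr17:45705228-45705401, and the stretch of Hsp90aa1 exon 10 aligned with it, chr12:111930374-111930547, are printed on the gene strand (minus strand, mm9) with the bases that differ in capitals.
Hsp90ab1 exon 10: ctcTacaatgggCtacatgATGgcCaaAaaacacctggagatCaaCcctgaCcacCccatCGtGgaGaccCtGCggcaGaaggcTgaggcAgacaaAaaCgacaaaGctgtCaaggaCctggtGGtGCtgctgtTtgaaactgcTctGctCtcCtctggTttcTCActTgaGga
Hsp90aa1 exon 10: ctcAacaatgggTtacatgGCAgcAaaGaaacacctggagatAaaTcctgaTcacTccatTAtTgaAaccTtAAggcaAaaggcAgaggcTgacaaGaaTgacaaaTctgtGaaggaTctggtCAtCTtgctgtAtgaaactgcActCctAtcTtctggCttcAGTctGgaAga

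The aligned stretches have 174 nt each and differ at 41 places. A read that matches one along its length therefore differs from the other at many positions. Other places in mm9 share part of the sequence of Hsp90ab1. In exon 10, 55.8% of the 31-mers of the odd region and 54.1% of those of the even region were unique, with up to 5 copies. In the odd regions of exons 9, 6 and 7 the unique share was 67.9%, 82.6% and 100%, and in the even region of exon 6 it was 83.5%. Hsp90aa1 also has near-identical copies elsewhere, and 77.0% of the 31-mers of its transcript occurred at least 2 times in mm9, against 24.3% for Hsp90ab1. With 50-mers, 31% of Hsp90aa1 and 90.9% of Hsp90ab1 were unique.

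Hspa8, which encodes HSC70, the constitutive cytosolic HSP70, lies on the plus strand at chr9:40609067-40613283 and has 9 exons. It held no region, and the nearest were 3530.32 kb away in the odd pool, at H2afx, and 5495.91 kb away in the even pool. Of the 31-mers of its transcript 82.1% occurred at least 2 times in mm9, with a median of 4 copies, and in its coding sequence 3.21% occurred 1 time. With 50-mers, 21.4% of its transcript was unique. Hspa8 and Hsp90aa1 thus had the most repeated transcripts of the 9 genes and no region, Ubb followed with 72.2% repeated 31-mers and 1 region in each pool, and the other 6 genes had from 0% to 24.3% and each held at least 1 odd region. The part of repeated sequence in this order was not tested. Hspa8 and Hsp90aa1 also had unique sequence without a region. Of their transcript 31-mers 17.9% and 23.0% occurred 1 time, and in the 3′ UTR of Hsp90aa1 48.3% did. In Hspa8 most of the unique 31-mers lay in the 5′ UTR of 370 nt, and in its 3′ UTR 19.6% were unique. Few regions lay in a 5′ UTR at any gene, 31 of the 1509 odd regions on exons.

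**Figure D2:**
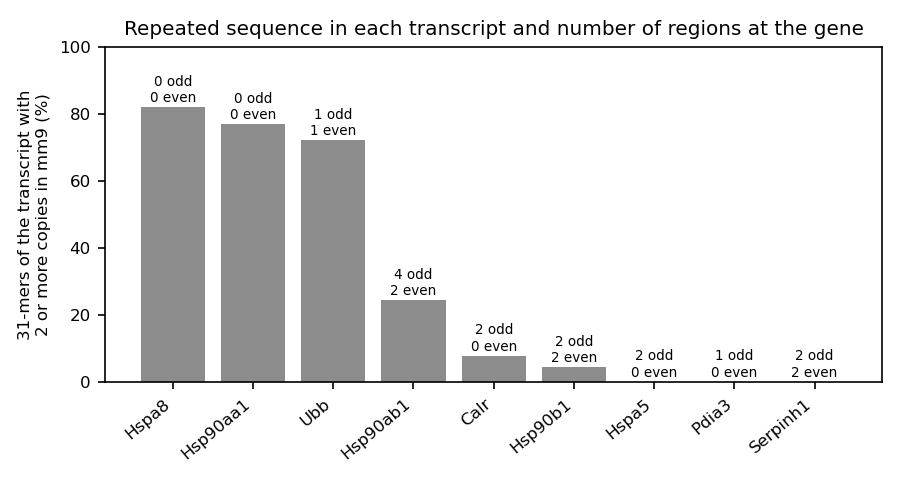
Share of the 31-mers of each spliced transcript that occur at least 2 times in mm9 (y axis, percent), with the number of odd and even regions at the gene written above each bar. Hspa8 (82.1%) and Hsp90aa1 (77.0%) have no region, and Hspa5, Pdia3 and Serpinh1 (0%) have 1 or 2 odd regions each.

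Regions also lay in copies of the members elsewhere in the genome. A search of mm9 with the 9 transcripts, which kept matches of at least 125 bp and 90% identity, found 37 other loci, of which 11 matched Hspa8, 10 Hsp90aa1, 9 Ubb, 4 Hsp90ab1, 2 Hsp90b1 and 1 Calr. Of the loci, 14 held an annotated pseudogene. Among these 14, 4 held an odd region, and 1 of the 4, a copy of Hspa8, held an even region too. Over all annotated pseudogenes, 2.04% held an odd region and 0.269% an even region.

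The copy of Hspa8 is Gm15459, an annotated pseudogene on chromosome 5 that a lincRNA annotation, Gm17431, overlaps. Its odd region, chr5:5783017-5783270, had a score of 14, which 9.61% of the odd regions reached, and matched nucleotides 286 to 539 of the Hspa8 coding sequence at 253 of 254 bases. Its even region, chr5:5782953-5783200, had a score of 6, and matched nucleotides 356 to 603 at 246 of 248 bases. They overlapped by 184 bp. In the odd region the 31-mers had a median of 4 copies in mm9 and 9.82% were unique. The copy of Hsp90aa1 is Gm12346, a pseudogene in the gene Ssh2. Its odd region, chr11:77107412-77107665, had a score of 7, which 39.1% of the odd regions reached, and matched nucleotides 415 to 668 of the Hsp90aa1 coding sequence at 253 of 254 bases. Its 31-mers had a median of 2 copies and 17.0% were unique. Both odd regions are printed here because they differ from the parent gene at 1 base each, which is in capitals. The first is on the minus strand of mm9 and the second on the plus strand, the strand that matches the parent transcript.
Gm15459, chr5:5783017-5783270: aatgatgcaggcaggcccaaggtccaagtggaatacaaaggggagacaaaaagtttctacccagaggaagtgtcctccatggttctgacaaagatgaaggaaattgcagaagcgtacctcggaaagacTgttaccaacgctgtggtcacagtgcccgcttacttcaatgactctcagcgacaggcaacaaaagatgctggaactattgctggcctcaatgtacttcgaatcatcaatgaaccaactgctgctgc
Gm12346, chr11:77107412-77107665: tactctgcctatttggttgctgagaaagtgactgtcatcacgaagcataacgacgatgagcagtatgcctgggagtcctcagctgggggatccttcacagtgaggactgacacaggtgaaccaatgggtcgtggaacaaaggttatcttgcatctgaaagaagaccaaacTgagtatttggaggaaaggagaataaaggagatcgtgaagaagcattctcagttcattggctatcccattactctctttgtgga

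Thus the 2 members without a region each had a nearly identical copy with one, in sequence where few 31-mers tell the copy from the parent. Most of their copies held none: 1 of 11 loci that matched Hspa8 and 1 of 10 that matched Hsp90aa1 held an odd region. Among the empty ones were long copies on chromosomes 10 (Hspa8) and 3 (Hsp90aa1), with best identities of 98.5% and 98.3%. Reads were mapped uniquely, the length of the reads and the treatment of mismatches are not given in the sources used here, and whether reads came from the parent or from the copy cannot be told apart from the lists.

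**Figure D3:**
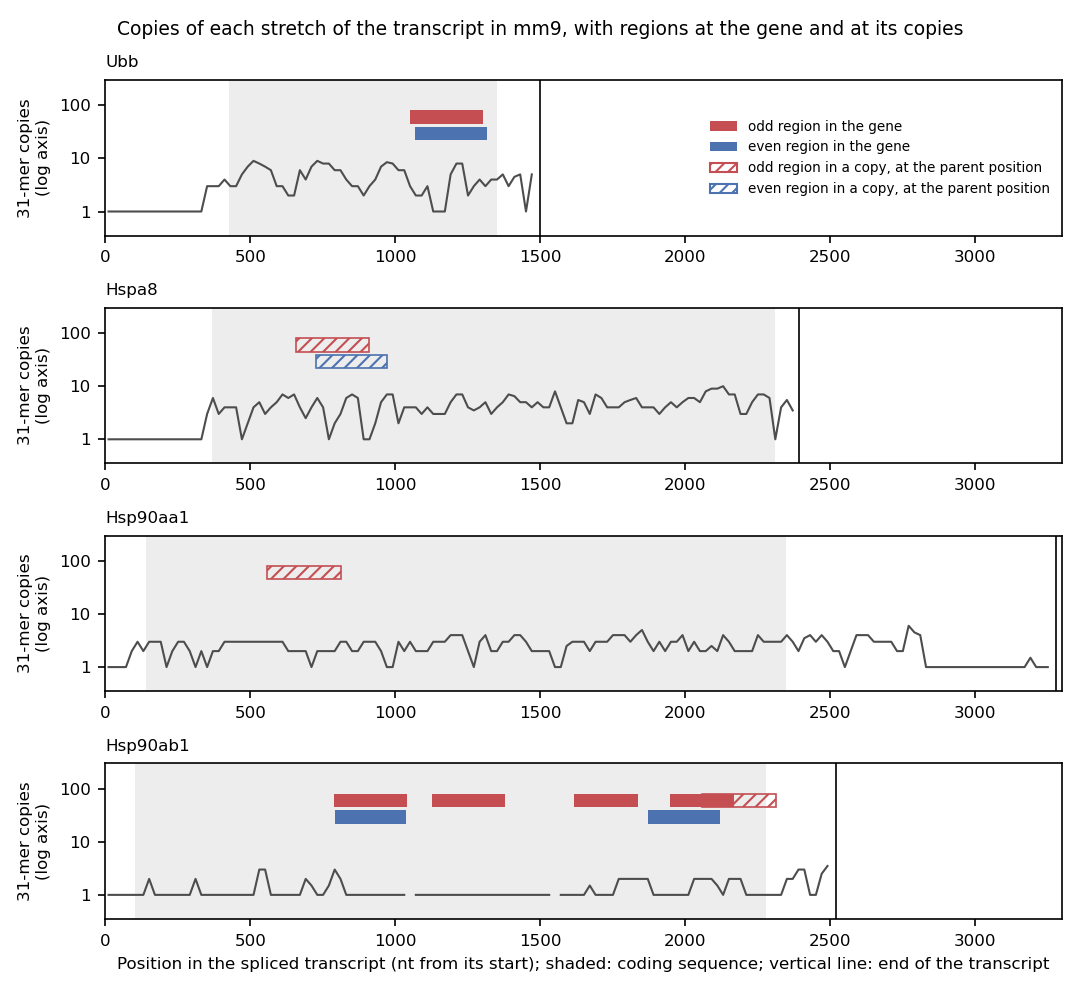
Number of copies in mm9 of the 31-mers along the spliced transcripts of Ubb, Hspa8, Hsp90aa1 and Hsp90ab1 (y axis, log scale; x axis, nucleotides from the transcript start; shaded, coding sequence; gaps in the line, exon junctions absent from the genome), with regions in the gene (filled) and regions in annotated pseudogene copies drawn at the matching position of the parent (hatched). Hspa8 and Hsp90aa1 carry hatched regions only, and their 31-mers stay above 1 copy over most of the coding sequence.

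The other copies with an odd region were less like their parents. Gm6368, a copy of Hsp90ab1 on chromosome X, held chrX:138416642-138416895 with a score of 10 and was 94.6% identical to the end of the Hsp90ab1 coding sequence and the start of its 3′ UTR. Gm14078, a copy of Calr in the gene Macrod2, held chr2:140781597-140781850 with a score of 6 and was 94.1% identical to the Calr coding sequence. Their 31-mers were unique for 63.8% and 77.2%.

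Among the ER chaperones, Hspa5 (BiP, the HSP70 of the ER) lies on the plus strand at chr2:34627490-34632051 and has 8 exons. It held odd regions in exon 8, chr2:34631128-34631381, with a score of 17, and in exon 5, chr2:34629551-34629804, with a score of 14. These scores were reached by 6.44% and 9.61% of the odd regions. Both were wholly coding, and all of their 31-mers were unique. The coding sequence of Hspa5 was 66.9% identical to that of Hspa8, and the regions were 68.1% and 64.2% identical to it. The nearest even region was 4871.41 kb away in Odf2.

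Hsp90b1 (GRP94, the HSP90 of the ER) lies on the minus strand at chr10:86152954-86168254 and has 18 exons. Its odd regions were in exon 13, chr10:86156624-86156877, with a score of 10 that 19.5% reached, and in exon 5, chr10:86164581-86164834, with a score of 5 that 71.0% reached. The score of exon 5 was the only odd score of the 9 genes below the list median of 6. Its even regions were in exon 12, chr10:86157105-86157352, with the lowest score of the list, 4, and in exon 5, chr10:86164425-86164672, with a score of 5 that 54.2% reached. In exon 5 the pools overlapped by 92 bp with midpoints 159 bp apart. The regions of exons 12 and 13 lay next to each other with midpoints 478 bp apart and no overlap, and both also lay in 1810014B01Rik, a lincRNA annotated on the opposite strand. ChIRP-seq of DNA does not tell the strand. The odd region of exon 5 is printed on the gene strand (minus strand, mm9) with the bases covered by both pools in capitals.
Hsp90b1 exon 5, chr10:86164581-86164834: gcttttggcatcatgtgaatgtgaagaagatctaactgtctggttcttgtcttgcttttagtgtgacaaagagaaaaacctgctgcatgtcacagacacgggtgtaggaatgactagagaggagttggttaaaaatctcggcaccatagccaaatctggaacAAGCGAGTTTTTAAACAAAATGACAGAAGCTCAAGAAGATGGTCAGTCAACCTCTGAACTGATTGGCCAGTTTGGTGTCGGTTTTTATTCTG

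The region begins in the intron before exon 5, with 61 intronic and 193 coding bases, so the bases covered by both pools are all coding. All 31-mers of the 4 regions of Hsp90b1 were unique. Its coding sequence was 61.3% identical to that of Hsp90ab1, and the 4 regions were 58.1% to 63.4% identical to it.

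Calr, which encodes calreticulin, a calcium-binding lectin chaperone, lies on the minus strand at chr8:87365749-87370833 and has 9 exons. Its odd region in the 3′ UTR of exon 9, chr8:87366182-87366435, had a score of 21, which 4.21% of the odd regions reached, and 80.4% of its 31-mers were unique. Its odd region in exon 5, chr8:87368432-87368685, had a score of 9, which 23.5% reached, with 210 coding and 44 intronic bases. Pdia3 (ERp57, a disulfide isomerase that works with calreticulin) lies on the plus strand at chr2:121239511-121264423 and has 13 exons. It held 1 odd region, chr2:121263410-121263663, with a score of 15 that 8.24% reached, which covered the last 23 coding bases and 231 bases of the 3′ UTR. The nearest even regions were 12689.8 kb from Calr and 712.166 kb from Pdia3. The lectin chaperone and its partner enzyme were thus marked by the odd pool alone, each in the last exon, and Calr also in an inner one. As the even list has 345 regions against 2112, an absence from it is no measure of a difference between the pools.

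Serpinh1 (HSP47, the chaperone of procollagen in the ER) lies on the minus strand at chr7:106493885-106501740 and has 5 exons. Regions of both pools overlapped at 2 places in it, as they did in Hsp90ab1. In exon 2 the odd region, chr7:106497319-106497572, had a score of 18 that 5.73% reached, and the even region, chr7:106497276-106497523, had a score of 7 that 27.5% reached. They overlapped by 205 bp with midpoints 46 bp apart. In the 3′ UTR of exon 5 the odd region, chr7:106494286-106494539, had a score of 17 that 6.44% reached, and the even region, chr7:106494166-106494413, had a score of 5 that 54.2% reached. They overlapped by 128 bp with midpoints 123 bp apart. The order of both places was the same in each pool. The stretch of exon 2 under either region is printed on the gene strand (minus strand, mm9), with the bases covered by both pools in capitals.
Serpinh1 exon 2, chr7:106497276-106497572: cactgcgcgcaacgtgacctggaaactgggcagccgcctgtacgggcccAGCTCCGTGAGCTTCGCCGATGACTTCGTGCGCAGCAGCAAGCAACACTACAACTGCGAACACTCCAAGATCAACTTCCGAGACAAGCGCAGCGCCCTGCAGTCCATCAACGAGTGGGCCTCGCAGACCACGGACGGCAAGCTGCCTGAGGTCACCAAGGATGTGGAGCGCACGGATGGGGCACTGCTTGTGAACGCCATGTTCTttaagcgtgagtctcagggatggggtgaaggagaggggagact

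The last 37 bases of this stretch are intron, and none of those is in capitals. No 31-mer of the Serpinh1, Hspa5 or Pdia3 transcripts had a second copy in mm9, so that regions at these genes rested on unique sequence.

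**Figure D4:**
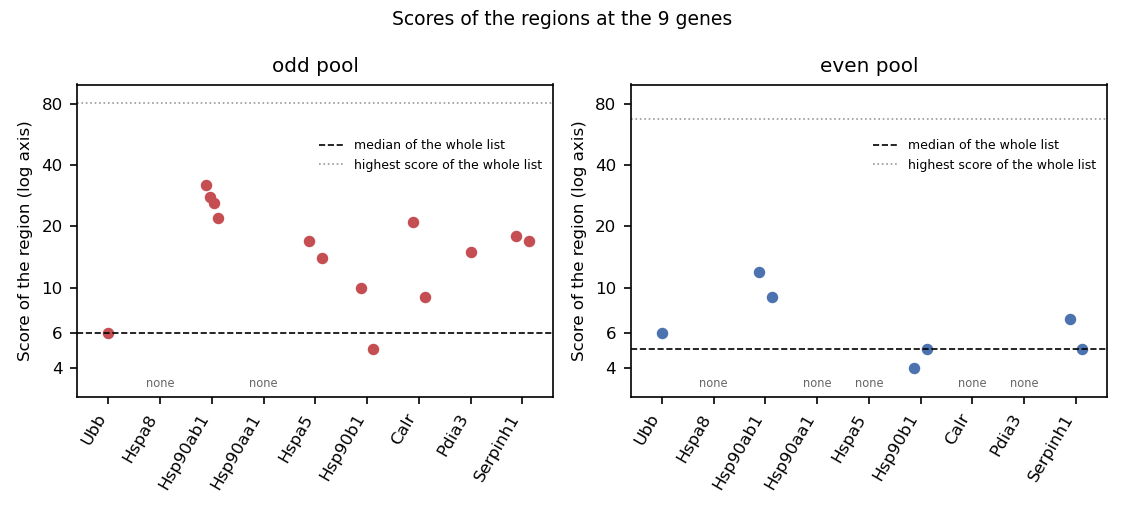
Deposited score of each region at the 9 genes in the odd pool (left) and the even pool (right), 1 point per region, on a log axis; the dashed line is the median of the whole list and the dotted line its highest score. In the odd pool 12 of 14 points lie above the median of 6, and in the even pool 4 of 7 lie above the median of 5.

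Within the odd list the 14 regions had a median score of 17, against 6 over all odd regions, and 12 of them lay above that median, as 39.1% of the list did. Within the even list the 7 regions had a median score of 6 against 5, and 4 of them lay above the list median, as 35.1% of the list did. Regions of 1 gene are not independent of each other, and 4 of the 12 were those of Hsp90ab1.

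All 21 regions had their midpoint on an exon of the member gene. For the odd pool this was 14 of 14 (95% Wilson interval 78.5% to 100%), where 85.2% of the odd regions in protein-coding genes were on exons. For the even pool it was 7 of 7 (64.6% to 100%), where 70.7% were. Exons made up from 11.1% of the span of Pdia3 to 73.4% of that of Ubb. These intervals treat regions as independent and cover counting error only. No region was on a first exon or in a 5′ UTR. The midpoints lay from 1720 bp (Ubb) to 24026 bp (Pdia3) downstream of the transcript start.

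Within the exons, the regions of the members differed from the lists in the share with a coding midpoint. Of the 14 odd regions 11 (78.6%) had a coding midpoint and 3 (21.4%) lay in a 3′ UTR, those of Calr, Pdia3 and Serpinh1, whereas over all odd regions on exons 39.8% were coding and 58.1% in a 3′ UTR. Of the 7 even regions 6 were coding, against 39.2% over the list. Coding sequence was the larger part of the transcript in each member with a region. It made up 2172 of 2520 nt in Hsp90ab1, 2406 of 2825 nt in Hsp90b1, 1965 of 2613 nt in Hspa5 and 915 of 1499 nt in Ubb. In Calr it was 1248 of 2184 nt, in Pdia3 1515 of 2770 nt and in Serpinh1 1251 of 2391 nt. Whether the coding share of the regions exceeded what these lengths give was not tested. The last exon held 5 of the 14 odd regions (35.7%, 95% Wilson interval 16.3% to 61.2%), where it makes up 31.5% of the exon length of the genes concerned, averaged over regions. Over all odd regions in genes with several exons, the last exon held 69.3%, where length gives 46.0%. The share in the last exon was 64.3% when exons of any annotated transcript were used. A region then counts if its midpoint is on the last exon of any of them. The 69.3% over the list was not counted in that way.

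Of the 14 odd regions 1, that of Ubb, had a median 31-mer with at least 2 copies (7.14%), against 16.5% over the list. GC content was 47.0% in the median odd region of the 9 genes, from 40.9% to 61.4%, and 49.6% over the list. Purines on the gene strand made up a median of 55.7% of the 14 odd regions and 54.0% of the 7 even regions. With coding midpoints only, 10 of 11 odd regions and 6 of 6 even regions of the 9 genes were above the medians of all such regions in a single gene, which were 50.8% and 50.4%. The coding sequences of the 9 genes as a whole had from 52.3% (Serpinh1) to 58.7% (Hsp90b1) purines, above those medians too, and a region exceeded the coding sequence of its own gene by over 5 percentage points at exon 6 (both pools) and exon 9 (odd pool) of Hsp90ab1 and at no other place. The 3′ UTR region of Calr, at 31.5%, and the even region in the 3′ UTR of Serpinh1, at 39.9%, were the lowest.

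The probes against PAM are 6 oligonucleotides of 20 nt. All 6 were compared with the regions of both pools, so a match need not be to a probe of the same pool. The longest stretch of any probe found in a region of the 9 genes, on either strand, was 7 to 9 nt in the odd pool (median 7) and 6 to 9 nt in the even pool (median 8). The same medians, 7 and 8, were found over all regions of the lists, where 13.6% of the odd and 21.7% of the even regions held a stretch of at least 9 nt.

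The other genes of these pathways were taken from 9 lists of 75 genes in all, and 66 of them were not among the 9 members. Of the 66, 19 (28.8%) held an odd region and 2 held an even region, where 6.46% and 0.997% of all protein-coding genes did. The counts for each list are small and are a description beside those shares. None of the 9 cytosolic and nuclear HSP70 and HSP110 genes, Hspa8 included, held a region in either pool, which at 6.46% for the odd pool is not apart from the share over all genes. Among the 10 genes of the HSP90 list, which includes its partner proteins, the 2 with a region beside Hsp90ab1 were St13 (Hip, score 15) and Stub1 (CHIP, an E3 ubiquitin ligase that binds chaperones, 2 odd regions with a score of 5 each). Among the 9 HSP40 genes, Dnaja2 (score 11) and Dnaja1 (score 5) held an odd region.

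The ER list had 14 genes, and 9 of them held an odd region. Beside the 4 members, these were P4hb (protein disulfide isomerase, score 18), Canx (calnexin, the membrane-bound counterpart of calreticulin, scores 12 and 5), Ppib (cyclophilin B, 3 regions with a score of 6 each), Pdia4 (score 5) and Hyou1 (score 5). Of the 11 genes of collagen folding and modification, Fkbp9 (score 8), Plod2 (score 6) and Fkbp10 (score 6) held an odd region beside Serpinh1, and P4ha1, a subunit of the collagen prolyl hydroxylase, held 2 even regions with a score of 4 each, 1 of them in an intron. The TRiC chaperonin, a cytosolic ring that folds actin and tubulin, had odd regions in 5 of its 8 subunit genes, with scores from 4 to 7 in Cct2, Cct3, Cct4, Cct5 and Cct7, and an intronic even region with a score of 4 in Cct2. Among 6 small heat shock genes Cryab (score 8) held an odd region, and the 4 mitochondrial chaperone genes held none.

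These 25 odd regions of non-members had scores from 4 to 18, and all were on exons, 14 coding and 11 in a 3′ UTR. No gene of the lists outside the 9 members reached the lowest of the 4 scores of Hsp90ab1, 22. Of all 75 genes, 14 had more than 50% of their transcript 31-mers in at least 2 copies in mm9, and 2 of these held an odd region. Of the other 61 genes 24 did. These counts include the 9 members, which were picked with the lists known, and Ubb, Hspa8 and Hsp90aa1 are among the 14. In the HSP70 and HSP110 list 3 genes, Hspa8, Hspa1a and Hspa1b, were among the 14, and the other 6 had from 0% to 14.7% repeated 31-mers and held no region either.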

How the data were processed

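PAM ChIRP-seq of ASCs gave 1 library for the odd probes and 1 for the even probes. Reads were uniquely mapped to mm9 (Bowtie2) and peaks were called (MACS2) by the authors, in versions not given in the sources used here. Each deposited list holds regions with a score of at least 4 whose unit is not stated. No further filter was applied. The first coordinate was taken as 0-based and is printed 1-based. Exon positions came from the GENCODE M1 transcript with the longest coding sequence. The 9 genes, the pathway lists and the measures were chosen with earlier results of these data known.

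All members were named with every region, and other genes where a region lay in them or in a copy. Copies of 31-mers in mm9 were counted on both strands. Those over an exon junction were left out where mm9 lacked them and kept where a copy of the gene held them. None was left out for Hsp90aa1 and Ubb. A 31-mer that occurs 1 time can thus lie in a copy of the gene. The counter and the overlap code were tested on simulated data. Copies of the transcripts were sought by megablast, and coding sequences were aligned globally. Sequences were read from mm9. Some genes and a sequence are not reported here. Intervals are Wilson intervals for counting error only. As there is 1 library per pool and no read count, depth is unknown and no test was made. Alternatives were regions with a score above the list median, region midpoints, spans extended by 2000 bp, exons of any transcript, 50-mers and a reciprocal overlap of 50%. Python 3.11.15, NumPy 2.4.6, pandas 2.3.3, SciPy 1.17.1, numba 0.67.0, matplotlib 3.10.9, Biopython 1.88, pysam 0.24.0, samtools 1.23.1 and BLAST 2.17.0 were used.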

Additional observations from a re-analysis of the deposited data

How the results depend on the processing

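Of 29 alternatives, 21 left a value within 1.5 times the stated count or within its interval, and 8 moved it. With only regions of a score above the list median, the even regions at the 9 genes fell to 4, the shared loci to 3, the odd regions with a median 31-mer of at least 2 copies to 0, and the share of protein-coding genes with a region to 2.45% in the odd pool and 0.371% in the even pool. With gene spans extended by 2000 bp these shares were 7.51% and 1.15%. With exons of any transcript the share of odd regions on a last exon was 64.3%. The 14 odd regions became 12 with the higher scores, and the 7 members with an odd region became 6, as Ubb was left out. The number of reads behind a region is unknown, there is no replicate, and the absence of a region at Hspa8 or Hsp90aa1 covers only what unique mapping can show. No paired analysis was possible because the pools have no replicates and no test was made.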
